A study of Mus musculus and Homo sapiens with 10 samples.

Results

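RNA polymerase I (Pol I) and RNA polymerase II (Pol II) were mapped across the genome of NIH3T3 cells, an immortalized line of mouse fibroblasts, by chromatin immunoprecipitation and sequencing (ChIP-seq). The whole Pol I list, with 1409 peaks, was compared here with the whole Pol II list, with 30239 peaks. Together they hold 31648 of the 156956 peaks in the 7 NIH3T3 lists, and they stand for 2 of the 10 samples of the series. No peak was chosen or left out by a measured value. The Pol I antibodies were rabbit polyclonals against POLR1A (RPA194), the largest Pol I subunit. The Pol II antibody was clone 4H8, described in the labels as recognising the C-terminal repeat YSPTSPS phosphorylated at serine 5. Both samples were exponentially growing cells of the same line, kept in DMEM with serum, and no treatment is named in the labels. The other NIH3T3 lists used here are UBF, a transcription factor of Pol I; H3K4me3 and H3K9ac, histone marks of active promoters; hyperacetylated H4, found in open chromatin; and H3K9me3, found in silent chromatin. H3K4me3, H3K9ac and H4 hyperacetylation are called the 3 active marks below.

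Pol I is known for a single product, the precursor of the large ribosomal RNAs, which it makes in the nucleolus from repeated genes. Pol II makes messenger RNAs and many small RNAs, and the form of its C-terminal repeat phosphorylated at serine 5 gathers near the starts of active genes. A peak of each polymerase at the same place means that DNA of that place was enriched with both antibodies. It does not show that both enzymes transcribe there or that they bind the same DNA molecule.

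Each antibody has 1 list, so there is no replicate spread, and the values describe these lists without a test. The lists give the chromosome, start and end of each peak and no score or read count, so the depth is unknown. Where a share is followed by an interval, it is the 95% Clopper-Pearson one, which is exact and binomial, and intervals of medians are 95% order-statistic ones. They cover counting error only, and neighbouring peaks are not independent. Coordinates are those of mm9, the mouse build in the submitters' processing notes. No mm9 gene annotation was used here, so places are named by position and no direction of transcription is known.

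Pol I peaks were few and narrow, and Pol II peaks were many and wider. The median Pol I peak was 230 bp wide (quartiles 160 and 305, range 45 to 3394), and the median Pol II peak 683 bp (quartiles 499 and 1049, range 190 to 39438). The Pol I list covered 341 kb in all and the Pol II list 26782 kb. Pol II peaks took up 1.01% of the range that the 7 lists span on the 19 numbered chromosomes and X. The median gap to the next peak of the same list was 661662 bp for Pol I and 7987 bp for Pol II.

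A majority of Pol I peaks lay on Pol II peaks, and few Pol II peaks carried Pol I. Of the 1409 Pol I peaks, 822 overlapped a Pol II peak by at least 1 bp (58.3%, interval 55.7 to 60.9). In the other direction 776 of 30239 Pol II peaks overlapped Pol I (2.57%, interval 2.39 to 2.75). Counted in bases, 66.7% of the sequence in Pol I peaks lay inside Pol II peaks, and 0.850% of the sequence in Pol II peaks lay inside Pol I peaks. Most overlapping Pol I peaks were enclosed: 680 lay wholly inside a Pol II peak, and 142 of the 822 (17.3%, 14.8 to 20.04) crossed an edge of it. A single Pol I peak was the rule, at 735 of the 776 Pol II peaks. A further 41 held 2 or more, and these accounted for 90 of the 822 Pol I peaks.

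The distance between centres separated the Pol I list into a near and a far part. The median Pol I centre lay 498 bp from the nearest Pol II centre (interval 457.5 to 574.5), with an upper quartile of 16686 bp. Within 100 bp were 15.7% of Pol I centres, within 500 bp 50.1% and within 1000 bp 59.1% (56.5 to 61.7). Between 1000 and 10000 bp the share grew little, to 70.9%, and it reached 88.1% at 100000 bp. Among the Pol I peaks that overlap Pol II, the median centre distance was 201 bp (179 to 219.5) with quartiles of 93.6 and 391 bp.

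UBF, mapped with a different antibody, gave a similar curve at short range. Within 200 bp of a Pol II centre lay 29.1% of Pol I centres (26.7 to 31.5) and 28.3% of UBF centres (26.8 to 29.7), with overlapping intervals. Within 1000 bp the shares were 59.1% for Pol I and 49.97% (48.3 to 51.6) for UBF, and within 10000 bp they were 70.9% and 55.2%, with intervals that did not overlap.

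**Figure D1:**
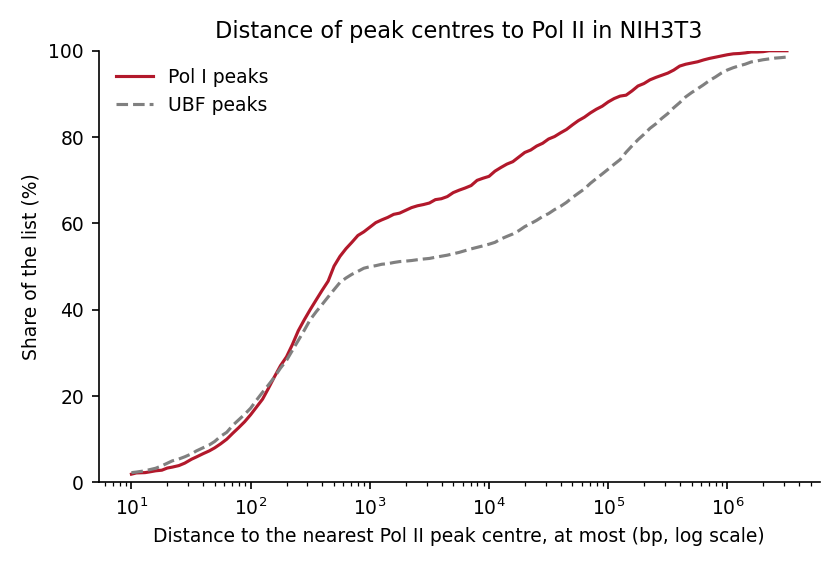
Cumulative share of the Pol I list (solid line) and of the UBF list (dashed line) whose peak centres lie within a given distance of the nearest Pol II peak centre (log axis, bp). Both lines climb steeply to about 1000 bp, where Pol I stands at 59.1% and UBF at 49.97%, and then flatten before a slow second climb.

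Inside Pol II peaks, Pol I centres lay toward the middle and thinned out at both edges. Of the 1409 Pol I centres, 795 fell inside a Pol II peak, and 521 of these (65.5%, 62.1 to 68.8) lay in the middle 50% of its width, where even spacing would put 50%. With the width cut into 10 equal parts, the 2 outermost held 4.15% (2.87 to 5.78) and 4.40% (3.09 to 6.07) of centres, where even spacing would put 10% each. The 3 fullest parts, the 4th, 5th and 6th from the lower coordinate, held 14.3%, 13.8% and 14.2%. Neither side was preferred along the chromosome, with 398 of 795 centres (50.1%, 46.5 to 53.6) in the part nearer the lower coordinate. The files give no strand, so positions upstream and downstream of a gene's start were not separated.

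The share in the middle 50% was lower in each wider class of Pol II peaks, with overlapping intervals. In Pol II peaks under 1000 bp, 69.1% of 304 Pol I centres (63.6 to 74.2) lay in the middle 50%. In those from 1000 bp to under 2000 bp, 64.9% of 370 (59.8 to 69.7) did, and in those of 2000 bp or more 58.7% of 121 (49.4 to 67.6). The 3 intervals overlapped, and that of the widest class included an even spacing. Over all Pol II peaks, 80.0% of 1799 UBF centres (78.1 to 81.8) lay in the middle 50%, an interval above that of Pol I. By class the UBF share was 74.8% (70.7 to 78.6) under 1000 bp, with an interval that overlapped that of Pol I. It was 82.2% (79.7 to 84.6) from 1000 bp to under 2000 bp and 81.0% (76.5 to 85.1) at 2000 bp or more, with intervals above those of Pol I.

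**Figure D2:**
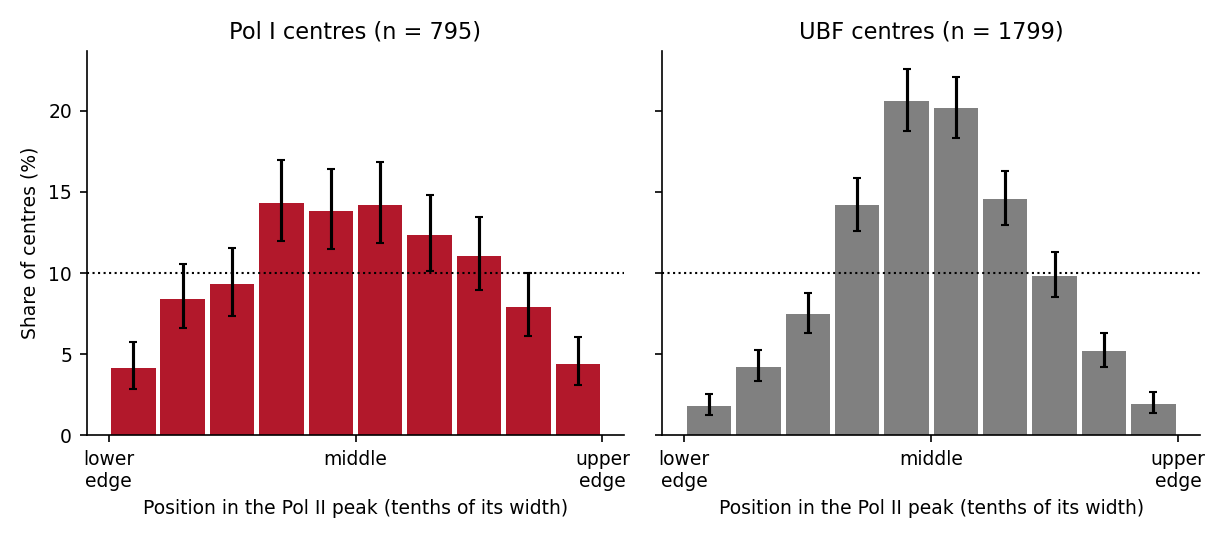
Position of the 795 Pol I centres (left) and the 1799 UBF centres (right) within the Pol II peak that holds them, in 10 equal parts of its width from the lower to the upper coordinate. Bars are shares of centres with 95% binomial intervals, and the dotted line marks the 10% of even spacing. The outermost parts hold 4.15% and 4.40% of Pol I centres, and the UBF centres are more concentrated in the middle.

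H3K4me3 gave a second landmark. At 743 Pol I centres the Pol II peak overlapped exactly 1 H3K4me3 peak. There the median distance from the Pol I centre was 201.5 bp (182 to 221) to the Pol II centre and 374 bp (335 to 426) to the H3K4me3 centre. The sites were chosen for a Pol I centre inside the Pol II peak, which limits the first distance and not the second, so no order is read from them. The Pol II and H3K4me3 centres were themselves a median of 270.5 bp apart. Pol I lay on the same side of the Pol II centre as the H3K4me3 centre at 345 of 741 sites (46.6%, 42.9 to 50.2), an interval that includes an even division.

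The share of Pol II peaks with Pol I was larger in wider Pol II peaks. Against 2.57% in the whole list, it was 0.845% (0.651 to 1.08) in the narrowest of 4 width groups, 190 to 499 bp, with 64 of 7573 peaks. It was 1.07% at 500 to 683 bp, 2.78% (2.42 to 3.18) at 684 to 1049 bp and 5.57% (5.06 to 6.11) at 1050 to 39438 bp, with 421 of 7558 peaks. Among the widest Pol II peaks, 18 of 193 between 4006 and 7956 bp had Pol I (9.33%, 5.62 to 14.3), and 4 of 13 at 8545 bp or more (30.8%, 9.09 to 61.4).

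A wide peak has more room for a Pol I peak, and per length the gradient was smaller. Over all Pol II peaks there were 29.7 Pol I centres per Mb of Pol II peak (27.7 to 31.8, exact Poisson interval, as for the other values per Mb). The narrowest group had 18.9 per Mb (14.4 to 24.2) and the widest 34.8 (31.6 to 38.2). In 10 width groups the number per Mb was lowest at 482 to 523 bp, with 12.02 (7.12 to 18.999), and highest at 953 to 1171 bp, with 46.9 (39.7 to 55.1). In the widest of the 10, from 1551 bp, it was 30.3 (26.4 to 34.6), an interval below that of the 953 to 1171 bp group, while the share of peaks with Pol I was the highest of all there, at 6.59% (5.73 to 7.53). Set against UBF, Pol I showed no steady trend with Pol II width. From the narrowest to the widest of the 4 groups there were 0.581, 0.870, 0.601 and 0.355 Pol I centres for each UBF centre. Among the widest Pol II peaks the number was 0.711 at 4006 to 7956 bp and 2.5 at 8545 bp or more, where only 13 peaks were counted.

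**Figure D3:**
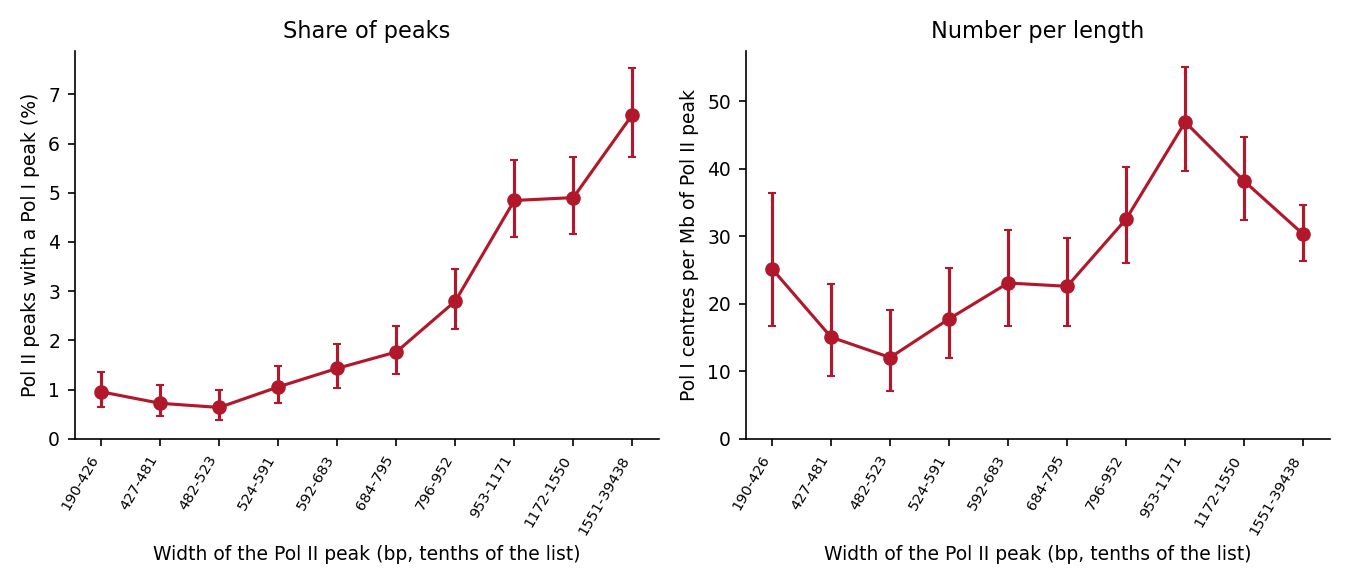
Left, share of Pol II peaks that overlap a Pol I peak in 10 groups of Pol II width, with 95% binomial intervals. Right, Pol I centres per Mb of Pol II peak in the same groups, with exact 95% Poisson intervals; the share is highest in the widest group (6.59%), and the number per Mb in the group of 953 to 1171 bp (46.9).

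Pol I peaks on Pol II were themselves wider than those elsewhere. Their median width was 272.5 bp (265 to 283), against 164 bp (157 to 172) for the 587 Pol I peaks without Pol II. Across 4 groups of Pol I width the share on Pol II was 20.5% (16.4 to 25.1) at 45 to 160 bp, 49.4% at 161 to 230 bp, 79.4% at 231 to 305 bp and 84.6% (80.4 to 88.2) at 306 to 3394 bp, with 58.3% in the whole list. Pol II peaks with Pol I had a median width of 1103 bp (1056 to 1141), against 673 bp (667 to 680) without. The lists carry no score, so width is the only measure of a single peak.

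The chromatin around Pol I differed with Pol II. H3K4me3 was present at 68.9% of all Pol I peaks. It was present at 93.9% of Pol I peaks with Pol II (772 of 822, 92.1 to 95.5) and at 33.9% of those without (199 of 587, 30.1 to 37.9), a difference of 60.02 percentage points (55.6 to 64.1). H3K9ac, at 68.8% of all Pol I peaks, was at 93.4% and 34.4% of Pol I peaks with and without Pol II. H4 hyperacetylation, at 71.3% of all, was at 95.7% and 37.1%. All 3 active marks together were met by 92.8% of Pol I peaks with Pol II and 26.9% of those without, and no active mark by 3.89% and 56.6%. Of the Pol I peaks without Pol II, 229 (39.01%, 35.04 to 43.1) lay in none of the other 5 lists either. Among those with Pol II, this could hold only for peaks without an active mark, 32 of 822 (3.89%). UBF was present at 21 of these 32, which leaves fewer still. For none of these combinations was the share over the whole Pol I list taken.

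The difference in H3K4me3 was present at every Pol I width and smaller among wide peaks. At 45 to 160 bp H3K4me3 was present at 69.9% of 73 Pol I peaks with Pol II (58.0 to 80.1) and 14.8% of 283 without (10.9 to 19.5). At 306 to 3394 bp it was present at 97.6% of 297 with Pol II (95.2 to 99.0) and 79.6% of 54 without (66.5 to 89.4). The wide Pol I peaks without Pol II were thus mostly in H3K4me3 and the narrow ones mostly outside it.

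H3K9me3, the mark of silent chromatin, was commoner on Pol I peaks with Pol II. It was present at 16.7% of all Pol I peaks, at 26.2% of those with Pol II (215 of 822, 23.2 to 29.3) and at 3.41% of those without (20 of 587, 2.09 to 5.21). In each of the 4 Pol I width groups the intervals lay apart, for example 41.1% (29.7 to 53.2) with Pol II and 3.89% (1.956 to 6.85) without at 45 to 160 bp. Among Pol I peaks that carried all 3 active marks the shares were 25.4% of 763 with Pol II (22.4 to 28.7) and 2.53% of 158 without (0.694 to 6.35).

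UBF divided the Pol I peaks in another way. Over the whole list its shares differed little, at 22.0% of Pol I peaks with Pol II (19.2 to 25.01) and 19.3% of those without (16.1 to 22.7), beside 20.9% of all; the difference was 2.77 percentage points (-1.65 to 7.09). The whole list mixes widths, and in each of the 4 Pol I width groups the UBF share was higher with Pol II. At 45 to 160 bp it was 46.58% (34.8 to 58.6) with Pol II and 28.98% (23.8 to 34.6) without. At 231 to 305 bp it was 20.1% (15.6 to 25.3) and 5.56% (1.53 to 13.6). The intervals overlapped at 161 to 230 bp, with 22.4% and 13.5%, and at 306 to 3394 bp, with 17.5% and 5.56%. Split by active marks, the gap was larger than over the whole list in both of the following classes. Where all 3 active marks were present, UBF was at 19.1% of Pol I peaks with Pol II (16.4 to 22.1) and 5.70% of those without (2.64 to 10.5). Where none was present, it was at 21 of 32 with Pol II (65.6%, 46.8 to 81.4) and 100 of 332 without (30.1%, 25.2 to 35.4). Pol I peaks with no active mark were rare on Pol II and common off it, and UBF was frequent among them.

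**Figure D4:**
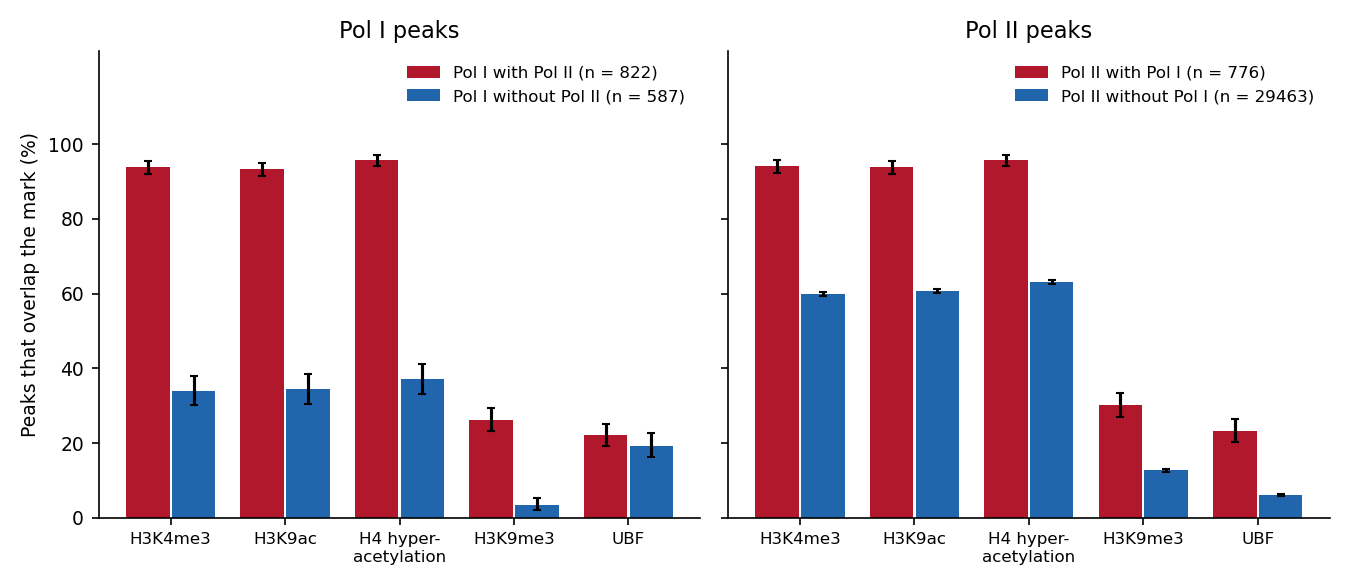
Share of Pol I peaks with and without Pol II (left) and of Pol II peaks with and without Pol I (right) that overlap each of 5 other lists, with 95% binomial intervals. Active marks stand at 93.4% to 95.7% of Pol I peaks with Pol II and at 33.9% to 37.1% of those without, whereas UBF stands at 22.0% and 19.3%.

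Seen from Pol II, the few peaks with Pol I were richer in every other list. H3K4me3, at 60.8% of all Pol II peaks, was present at 94.2% of Pol II peaks with Pol I (92.3 to 95.7) and 59.9% of those without (59.3 to 60.4). H3K9ac, at 61.5% of all Pol II peaks, stood at 93.8% and 60.7%, and H4 hyperacetylation, at 63.9% of all, at 95.9% and 63.1%. H3K9me3, at 13.2% of all, stood at 30.2% (26.9 to 33.5) with Pol I and 12.7% (12.3 to 13.1) without. UBF, at 6.60% of all, stood at 23.2% (20.3 to 26.3) with Pol I and 6.16% (5.89 to 6.44) without.

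Among Pol II peaks without Pol I, the widest group met each of these lists most often, so the same shares were taken within width groups. In the widest of 4, H3K4me3 was present at 99.0% of Pol II peaks with Pol I (97.6 to 99.7) and 83.9% of those without (83.0 to 84.7). At 500 to 683 bp the shares were 92.6% of 81 (84.6 to 97.2) and 48.0% (46.9 to 49.1). H3K9me3 was higher with Pol I in all 4 groups, with 38.005% against 22.9% in the widest and 31.2% against 10.2% in the narrowest.

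UBF had its largest gap in the narrowest Pol II peaks. There 34 of the 64 Pol II peaks with Pol I had UBF (53.1%, 40.2 to 65.7), against 1.58% (1.31 to 1.89) of the 7509 without Pol I. Among Pol II peaks of the widest group UBF stood at 24.2% (20.2 to 28.6) with Pol I and 16.5% (15.6 to 17.3) without. Of the 34 narrow Pol II peaks with both Pol I and UBF, 14 had H3K4me3 (41.2%, 24.6 to 59.3). Narrow Pol II peaks without Pol I had it at 36.4% (35.3 to 37.5). No active mark was present at 18 of the 34, and H3K9me3 was present at 16. The 30 narrow Pol II peaks with Pol I and no UBF had H3K4me3 at 23, no active mark at 3 and H3K9me3 at 4.

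The 587 Pol I peaks without Pol II were not near misses for the most part. The gap to the nearest Pol II peak had a median of 29123 bp (22932 to 38671) and quartiles of 6352 and 126464 bp. It was at most 1000 bp for 61 peaks (10.4%, 8.04 to 13.1), and over 100000 bp for 167. Active marks followed the gap. H3K4me3 was present at 54 of the 61 Pol I peaks within 1000 bp of Pol II (88.5%, 77.8 to 95.3), and only 1 of them had no active mark. From 1001 to 10000 bp H3K4me3 stood at 44.3% of 122, from 10001 to 100000 bp at 32.5% of 237 and beyond at 8.38% of 167 (4.66 to 13.7).

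UBF was commonest at the largest gaps and differed little between the classes up to 10000 bp. It was present at 9.84% of the Pol I peaks within 1000 bp of Pol II (3.70 to 20.2) and 9.02% from 1001 to 10000 bp, at 18.1% from 10001 to 100000 bp and at 31.7% beyond (24.8 to 39.4). The most distant Pol I peaks were also the narrowest, with a median of 98 bp over 100000 bp from Pol II and 187 bp within 1000 bp. The 5 farthest were 61 to 101 bp wide. The first, on chromosome 1 from 102076709 to 102076805, lay 2083856 bp from any Pol II peak and overlapped UBF. Of the 5, 2 overlapped UBF, 1 H3K4me3, 1 H4 hyperacetylation and 1 H3K9me3.

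Pol I and Pol II peaks were dense on the same chromosomes. Chromosome 11 held 1.40 Pol I and 25.6 Pol II peaks per Mb, the highest of both lists, and chromosome 15 followed with 1.16 and 19.4. The X chromosome held 0.108 and 2.83 per Mb, the lowest of both among the numbered chromosomes and X. The order was not identical: chromosome 19 held 0.668 Pol I and 18.9 Pol II peaks per Mb, and chromosome 4 held 0.700 and 13.3. Over the 20 chromosomes, without Y, Spearman's rho between the densities was 0.94 and Pearson's r 0.94. These are descriptions, since the chromosomes of a list come from the same library and are not replicates. The gene density and mappable sequence of a chromosome can bear on both lists, which was not tested. Lengths were taken as the range spanned by the lists.

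The share of Pol I on Pol II also differed between chromosomes. It was 72.5% of 171 Pol I peaks on chromosome 11 (65.2 to 79.1) and 70.8% of 120 on chromosome 15 (61.8 to 78.8), beside 58.3% over all. It was 21.4% of 42 on chromosome 13 (10.3 to 36.8) and 3 of 18 on X (16.7%, 3.58 to 41.4). Chromosome 13 was not poor in Pol I for its Pol II: it held 4.98 Pol I peaks for every 100 Pol II peaks, against 5.48 on chromosome 11. Its 42 Pol I peaks had a median width of 153.5 bp, against 262 bp on chromosome 11, and 26 of them overlapped H3K4me3. The 2 Pol I peaks on Y did not overlap Pol II.

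In bins of 1 Mb the lists followed each other less closely. Of 2565 bins with a peak of any NIH3T3 list, 841 held Pol I and 2008 held Pol II, and 43 held Pol I without any Pol II. Spearman's rho between the numbers per bin was 0.47 and Pearson's r 0.56. For the Pol I peaks on Pol II they were 0.47 and 0.59, and for those without Pol II 0.23 and 0.21. A Pol I peak on Pol II needs a Pol II peak at its place, so this difference is partly built in. For all Pol I peaks against H3K4me3 in place of Pol II, rho and r were 0.48 and 0.55, about the same as against Pol II. As with chromosomes, bins are not replicates, and the mappability and gene density of a bin can bear on both lists.

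Pol I peaks off Pol II were also commoner in Pol II-rich bins, but less steeply. The split was made by Pol II itself, so part of this difference, and of the rise in share below, is built in. The 557 bins with no Pol II peak held a mean of 0.0880 Pol I peaks each. The 716 bins with 1 to 4 Pol II peaks held a mean of 0.0992 Pol I peaks on Pol II and 0.161 off it. The 190 bins with 40 or more Pol II peaks held 1.63 on Pol II and 0.526 off it. The share of Pol I peaks on Pol II was 38.2% (31.2 to 45.6) in the bins with 1 to 4 and 75.6% (71.1 to 79.6) in those with 40 or more. For each 100 Pol II peaks there were 11.5 Pol I peaks in the first of these classes and 3.47 in the last.

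**Figure D5:**
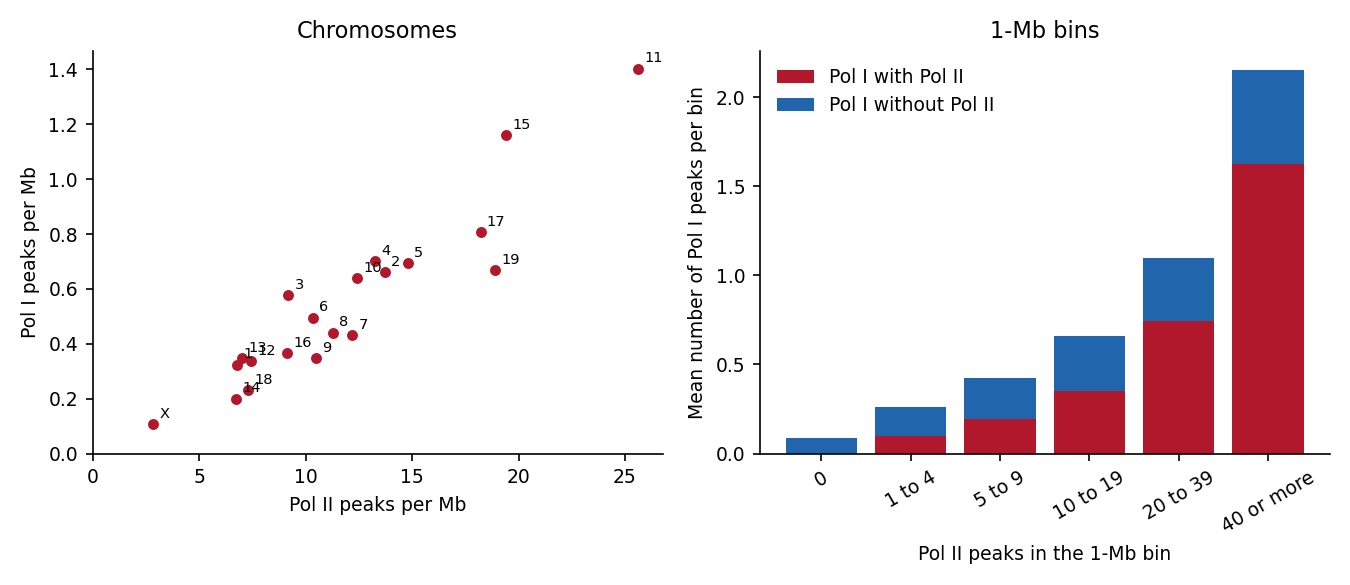
Left, Pol I peaks per Mb against Pol II peaks per Mb for chromosomes 1 to 19 and X, labelled by chromosome. Right, mean number of Pol I peaks per 1-Mb bin, on Pol II (lower, red) and off it (upper, blue), by the number of Pol II peaks in the bin; the means are 1.63 and 0.526 in bins with 40 or more Pol II peaks.

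Single places showed the extremes of the overlap. The widest Pol I peak lay on chromosome 17 from 39979939 to 39983333 (3394 bp), inside a Pol II peak from 39979856 to 39985933 (6077 bp) that held 5 Pol I peaks, the most of any. The Pol I peaks there reached from 39979939 to 39985838, with gaps of 10 to 220 bp between them, so that they nearly filled the Pol II peak. UBF, the 3 active marks and H3K9me3 all overlapped it. The files name no gene there, and the mappability and copy number of this sequence were not tested.

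Next by number was a Pol II peak on chromosome 11 from 98724593 to 98725834 (1241 bp), which met 4 Pol I peaks of 154 to 368 bp and all 3 active marks, without UBF or H3K9me3. It lies in the 1-Mb bin with the most Pol I peaks, from 98000001 to 99000000, which held 15 Pol I peaks, 14 of them on Pol II, and 99 Pol II peaks. A Pol II peak on chromosome 7 from 89919522 to 89920615 met 3 Pol I peaks together with UBF, H4 hyperacetylation and H3K9me3, and neither H3K4me3 nor H3K9ac. Pol II peaks on chromosome 6 from 47600314 to 47601958 and on chromosome 2 from 122202972 to 122203885 also met 3 Pol I peaks each, with all 3 active marks.

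The 10 widest Pol I peaks on Pol II were 599 to 3394 bp wide and all 10 carried the 3 active marks, with H3K9me3 at 5 and UBF at 4. Of all 822 Pol I peaks on Pol II, 92.8% carried the 3 active marks, 26.2% H3K9me3 and 22.0% UBF. The widest and the next widest, both with H3K9me3 and UBF, lay in the same Pol II peak on chromosome 17. Centres nearly coincided at a Pol I peak on chromosome 11 from 98543572 to 98544426, which lay 7.5 bp from the centre of its Pol II peak. A pair of wide Pol I peaks lay on chromosome 4, from 62162851 to 62163858 (1007 bp) and from 62180426 to 62181074 (648 bp). Each was inside a Pol II peak, with its centre 69 and 142.5 bp from that of the Pol II peak. The 10 widest Pol I peaks without Pol II were 420 to 576 bp wide, and all 10 overlapped H3K4me3, 9 H3K9ac, 9 H4 hyperacetylation, 1 UBF and none H3K9me3. For the 54 Pol I peaks of 306 to 3394 bp without Pol II these shares were 79.6%, 77.8%, 77.8%, 5.56% and 0%. The widest of the 10, on chromosome 4 from 88287174 to 88287750, lay 79102 bp from the nearest Pol II peak. It was the one of the 10 with UBF.

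Very wide Pol II peaks were found both with and without Pol I. The widest Pol II peak with Pol I, on chromosome 15 from 75998760 to 76038198 (39438 bp), held 2 Pol I peaks. The widest without, on chromosome 9 from 2999890 to 3038581 (38691 bp), held none, with all 3 active marks and H3K9me3 in both. The 4 next widest with Pol I, of 7125 to 14344 bp, held 1 or 2 Pol I peaks each, and the 4 next widest without were 9345 to 12084 bp. Of the 5 widest Pol II peaks with Pol I, 4 lay on chromosome 15. The widest peaks of the H3K4me3, H3K9ac, H4 hyperacetylation and H3K9me3 lists were 38902 to 41813 bp, similar to those of Pol II. The widest UBF peak was 6865 bp. Mappability at the places of very wide peaks was not tested.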

How the data were processed

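Peak lists of 7 ChIP-seq samples of NIH3T3 cells were used, 1 per antibody. The authors deposited each as called peaks in 3 columns (chromosome, start, end), with no score or count. Per the submitters' processing notes, CASAVA 1.8.2, BWA and Picard were used with the mouse build mm9. The sources used here do not name the peak caller or its threshold, and do not say whether replicates were pooled or whether coordinates count from 0 or 1, so the threshold behind each list's length and widths is unknown. Carriage returns were taken as line ends, and every line of the Pol I file, which lacks a header, was used. Width is end minus start. Peaks on contigs or Y (2 Pol I peaks on Y, 6 Pol II peaks on Y and 173 on contigs) stayed in the overlaps and were left out of bins and of the correlations over chromosomes.

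Overlap was at least 1 bp. Centre distances, positions in Pol II peaks and counts per 1-Mb bin used peak centres. The 4 and 10 width groups were cut at quantiles of the list, and the classes of position and of the widest Pol II peaks at fixed widths. Intervals of differences combine the exact intervals of the shares compared. The overlap, distance and position code was tested on simulated data with Python 3.11.15, numpy 2.4.6, pandas 2.3.3 and scipy 1.17.1. Peaks named singly were the widest, those with most Pol I, the farthest from Pol II and the fullest bins. The comparisons and lists were chosen with earlier results of these data known. The splits by gap, active marks and bin density were added after seeing the values. The lists of human cells were not analysed here. The gene table provided is for GRCm38, another build, so no gene names or sequences are given.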

Additional observations from a re-analysis of the deposited data

How the results depend on the processing

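Of 54 alternatives to 10 results, 36 stayed within the 95% interval of the reported value and 18 moved outside it. No difference or correlation changed sign. Shares and the median width cannot be negative, so a change of direction could not be seen for them. For correlations that interval was Fisher's, used only as a yardstick. With Pol I wholly inside Pol II, 48.3% of Pol I and 2.13% of Pol II peaks overlapped, 74.3% of Pol I centres lay in the middle 50%, and the H3K4me3 difference of Pol I peaks was 48.1 points. With centres within 1000 bp, 2.83% of Pol II peaks had Pol I. With the wider 50% of each list, standing in for a stricter threshold, 71.2% of Pol I and 3.19% of Pol II peaks overlapped, 69.8% of Pol I centres lay within 1000 bp of a Pol II centre, 4.74% of the widest Pol II group had Pol I, Pol I on Pol II had a median width of 308.5 bp, and the H3K4me3 differences were 48.7 points for Pol I and 24.8 for Pol II. Merging Pol I peaks within 1000 bp left 1350 and gave a median width of 285 bp. Pol I centres lay within 500 bp of a Pol II centre at 50.1% and within 2000 bp at 63.0%. Spearman's rho per bin was 0.40 at 500 kb, 0.69 at 5 Mb and 0.42 without bins that hold no Pol II. The cause of these moves was not tested beyond what each setting changes by construction. Leaving out contigs and Y moved no result outside its interval, nor did leaving out X move the correlation over chromosomes.

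No paired analysis was possible because each antibody has 1 list and no replicate numbers are shared. The lists carry no score, so narrow peaks near the callers' thresholds could not be told from firm ones. An overlap of lists shows enrichment in 2 separate experiments.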

Other observations

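Pol II peaks with Pol I differed with their surroundings. In 1-Mb bins with 1 to 4 Pol II peaks, 62 Pol II peaks had Pol I, and UBF was present at 40.3% of them (28.1 to 53.5), against 14.7% (12.9 to 16.5) of the 1561 Pol II peaks there without Pol I. In bins with 40 or more, 292 Pol II peaks had Pol I, with UBF at 14.7% (10.9 to 19.3), against 3.12% (2.81 to 3.45) of the 11490 without. H3K4me3 differed in every class of bins but the sparsest. In the sparsest it stood at 80.6% of Pol II peaks with Pol I (68.6 to 89.6) and 78.9% of those without (76.8 to 80.9), with overlapping intervals. It stood at 90.8% (81.9 to 96.2) with Pol I and 73.7% (72.0 to 75.3) without in bins with 5 to 9 Pol II peaks, at 95.6% and 66.4% with 10 to 19, at 94.3% and 59.1% with 20 to 39, and at 97.3% (94.7 to 98.8) and 51.5% (50.6 to 52.5) with 40 or more.

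The share of Pol II peaks with Pol I was set beside Pol II density on 2 scales. Over the 20 chromosomes it had a Spearman's rho of 0.72 with Pol II peaks per Mb, with 3.93% on chromosome 15 and 0.636% on X. Over classes of 1-Mb bins it was 3.82% (2.94 to 4.87) in bins with 1 to 4 Pol II peaks and nearly flat beyond, at 2.75% (2.17 to 3.43), 2.49%, 2.49% and 2.48% (2.21 to 2.78) in the 4 denser classes. Within the narrowest of 4 Pol II width groups it was 3.46% (2.03 to 5.47) in the sparse bins and 0.473% (0.245 to 0.824) in the dense ones, and within the widest it was 5.48% (3.38 to 8.34) and 5.78% (5.01 to 6.64).

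The lines of the Pol I list do not follow the coordinates: 686 of 1388 neighbouring lines on a chromosome run backwards. In 4 equal parts of each chromosome's lines, from first to last, the median width was 338, 233, 216 and 193 bp, and the share on Pol II was 68.1% (63.1 to 72.9), 58.0%, 55.2% and 51.6% (46.2 to 57.0). Among peaks up to 160 bp the share was 23.2% (16.4 to 31.1) in the earlier and 18.8% (13.8 to 24.6) in the later 50% of lines. Among peaks of 161 to 305 bp it was 61.5% (55.5 to 67.2) and 66.3% (61.6 to 70.9), and among wider ones 84.0% (79.3 to 88.1) and 87.3% (76.5 to 94.4), with overlapping intervals in all 3 classes. No source used here says what the order means, and it was not used as a rank.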
